A study of Sus scrofa with 12 samples.

Results

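The 10 genes described here belong to the transcriptional output and control of the coactivators YAP and TAZ. They are the targets ANKRD1, CCN1, CCN2 and AMOTL2, and the coactivator genes YAP1 and WWTR1. The others are the DNA-binding partners TEAD1 and TEAD4, the kinase LATS2 and the LATS inhibitor AJUBA. The genes were chosen by measured values, because ANKRD1 had been seen to rise in these libraries at day 4 of endothelial induction. All 10 were found by their pig symbols among the 19681 genes of the deposited expression tables. The study differentiated porcine induced pluripotent stem (iPS) cells toward endothelial cells. The libraries described here hold RNA of 3 stages of induction, beside a porcine endothelial cell line. The study also sequenced undifferentiated iPS cells and sorted CD31-positive cells, which are not among these libraries. IEC2 cells were harvested at day 2, after the GSK3 inhibitor CHIR99021 in differentiation medium. IEC4 cells were harvested at day 4, after a further period with BMP4, FGF2 and VEGF, and IEC12 cells at day 12, after culture in endothelial growth medium with VEGF. The IEC cells were unsorted cultures derived from iPS cells, since the sort for CD31 followed day 12, and AOC is 1 established line. Each of the 4 groups had 3 libraries, labelled A, B and C and called biological replicates by the submitters, so n is 3 for every mean ± SD, and p-values measure the spread between these cultures alone.

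In the Hippo pathway, the MST kinases activate LATS kinases, which phosphorylate YAP and TAZ and hold them in the cytoplasm. Unphosphorylated YAP and TAZ enter the nucleus, where they have no DNA-binding domain of their own and act through TEAD factors on promoters and enhancers. The pathway responds to cell density, spreading and stiffness, and several of its targets, LATS2 and AMOTL2 among them, feed back to restrain YAP. In endothelial cells YAP and TAZ are known for roles in vessel sprouting and in the response to flow. RNA levels do not measure phosphorylation or nuclear location of YAP and TAZ.

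Expression is given in FPKM, which scales fragments to transcript length and to the mapped total, so that levels of different genes are per length. The FPKM of a library summed to between 335976.4 and 457193.7, the number of reads behind each value is unknown, and the relative depth of 11 libraries lay between 0.862 and 1.19. Groups without overlap were common over all genes. Of 11053 genes, 21.5% to 35.1%, depending on the pair of groups, lay wholly higher in the later stage or in AOC. Wholly lower there were 17.3% to 52.3%. Endothelial markers were scarce in the IEC libraries. The 8 found, of 10 listed, summed to 2.92 to 5.14 FPKM at day 2, 1.17 to 1.57 FPKM at day 4 and 0.130 to 0.265 FPKM at day 12, against 291 to 415 FPKM in AOC. The VEGF receptor gene KDR was the exception at day 2, with 2.42 to 3.99 FPKM in IEC2 against 1.31 to 1.46 FPKM in AOC, and was at most 0.0374 FPKM in IEC12. CDH5, the cadherin of endothelial junctions, was listed at 0 in all 9 IEC libraries, and PECAM1, which encodes CD31, was at 0.0198 to 0.106 FPKM in IEC12 against 91.7 to 131 FPKM in AOC. In such bulk samples, fewer cells of a type and less RNA per cell cannot be told apart.

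ANKRD1 encodes a cardiac ankyrin repeat protein and is among the genes most often used as a readout of YAP and TEAD activity. It lies at chr14:102603777-102612857 of Sscrofa11.1 (ENSSSCG00000010461). In IEC2, ANKRD1 was listed at 0, 0.0194 and 0.0919 FPKM in replicates A, B and C. In IEC4 it was at 31.1, 53.7 and 165 FPKM, with a mean of 83.3 ± 71.9 (SD, n = 3). In IEC12 it was at 0.336, 0.176 and 0.289 FPKM, and in AOC at 1036, 1049 and 1099 FPKM. ANKRD1 was therefore high in every AOC library, intermediate and scattered in IEC4, and close to 0 in every IEC2 and IEC12 library, and no neighbouring groups in this order overlapped. It ranked 35, 35 and 36 among all genes in the AOC libraries, and 1975, 1170 and 343 in IEC4. The difference between IEC4 and IEC2 was 6.0 on the log2(FPKM + 1) scale. IEC12 lay below IEC4 by a difference of -5.71. These differences chose the gene set and have no test. Adding 1 before the logarithm understates the change of a gene near 0, and with 0.1 in its place the first difference was 8.95.

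On comparisons that the choice of genes did not use, ANKRD1 was 9.71 ± 0.425 (SE) higher in AOC than in IEC12 on the log2 scale, with an adjusted p of 4.25e-09 in limma. The 3 IEC12 libraries were above the 3 IEC2 libraries, all at less than 1 FPKM. The log2 difference was 0.29, or 1.45 with 0.1 in place of 1. No test is read from it, since ANKRD1 passed the filter of at least 1 FPKM in at least 3 libraries of the IEC fit only through IEC4.

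**Figure D1:**
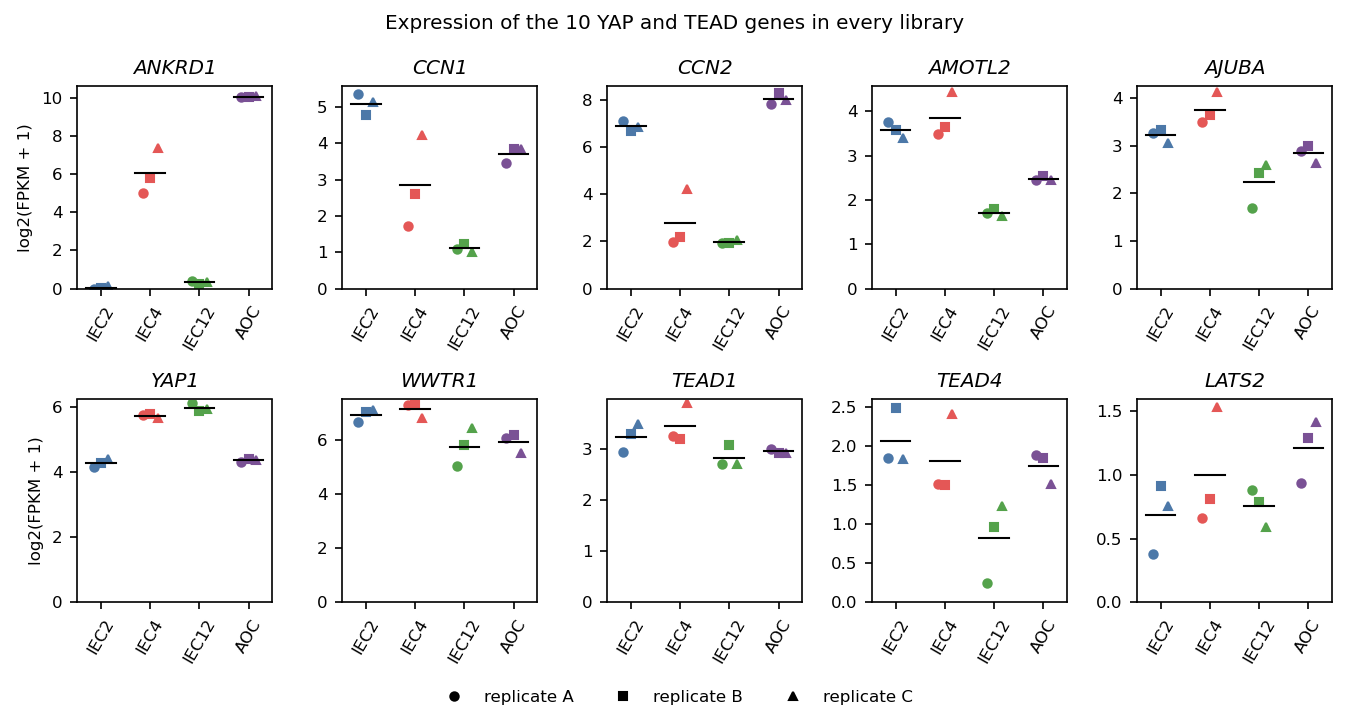
Expression of the 10 genes as log2(FPKM + 1), vertical axis starting at 0, in the libraries of IEC2, IEC4, IEC12 and AOC; each marker is 1 library, its shape gives the replicate letter and the bar is the group mean. ANKRD1 is high in AOC and IEC4 only, CCN1 is lowest in IEC12, CCN2 is low in IEC4 and IEC12, which overlap, and YAP1 is high in IEC4 and IEC12.

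CCN1 and CCN2 encode secreted matricellular proteins, formerly CYR61 and CTGF, that bind integrins and are prompt targets of YAP and TEAD. CCN1 lies at chr4:130392404-130395179 and CCN2 at chr1:31674398-31677697. CCN1 was at 40.0, 26.3 and 34.1 FPKM in IEC2, at 2.30, 5.10 and 17.6 FPKM in IEC4, at 1.11, 1.35 and 1.02 FPKM in IEC12 and at 9.86, 13.2 and 13.3 FPKM in AOC. Its order was thus IEC2, AOC, IEC4 and IEC12, and of the neighbours only AOC and IEC4 overlapped. CCN2 was at 137, 101.7 and 114 FPKM in IEC2, at 2.89, 3.57 and 18.0 FPKM in IEC4, at 2.78, 2.84 and 3.22 FPKM in IEC12 and at 227, 309.9 and 255 FPKM in AOC. AOC held the highest CCN2 levels and IEC2 the next, while IEC4 and IEC12 overlapped near the bottom.

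At the day on which ANKRD1 was high in the IEC cultures, the levels of CCN1 and CCN2 were below those of day 2. The difference between IEC4 and IEC2 was -2.24 on the log2 scale for CCN1 and -4.08 for CCN2, with every IEC4 library below every IEC2 library for both genes, as a description without a test. Of all genes, 17.3% lay below in the same way. From IEC4 to IEC12, CCN1 fell by 1.74 on the log2 scale (SE 0.502, limma adjusted p = 0.0192). Without IEC4 replicate C, this fall was 1.06 with an adjusted p of 0.0207 in limma. CCN2 had a log2 fold change of -0.82 ± 0.489 (SE) over the same interval and was not called (limma, adjusted p = 0.198). Without IEC4 replicate C this value was -0.10. From IEC2 to IEC12, CCN1 fell by 3.98 (SE 0.502, limma adjusted p = 0.000229). CCN2 fell by 4.90 over that interval (SE 0.489, limma adjusted p = 5.7e-05). Both genes were higher in AOC than in IEC12, CCN1 by 2.59 ± 0.463 (SE, limma adjusted p = 0.000472) and CCN2 by 6.06 ± 0.450 (SE, limma adjusted p = 3.78e-07).

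The balance of the related genes also varied between groups. The ratio of CCN2 to CCN1 FPKM within a library was 3.35 to 3.87 in IEC2, 0.700 to 1.25 in IEC4, 2.10 to 3.16 in IEC12 and 19.1 to 23.5 in AOC. None of these ranges overlapped. For each of the 3 comparisons tested (IEC12 with IEC4 and with IEC2, and AOC with IEC12), the exact two-sided permutation p was 0.1, the smallest that 3 libraries against 3 allow, and 0.15 after adjustment over the 15 tests of ratios and sums.

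AMOTL2 is a target that acts back on the pathway, and AJUBA acts on its LATS kinases. AMOTL2, an angiomotin-family protein that binds YAP and retains it outside the nucleus, lies at chr13:75490936-75507360. It was at 12.5, 10.95 and 9.60 FPKM in IEC2, at 10.2, 11.5 and 20.6 FPKM in IEC4, at 2.25, 2.48 and 2.13 FPKM in IEC12 and at 4.48, 4.79 and 4.43 FPKM in AOC. IEC4 and IEC2 overlapped, and AOC and then IEC12 lay below them with no overlap. AMOTL2 fell from IEC4 to IEC12 by 2.14 on the log2 scale (SE 0.242, limma adjusted p = 0.000179). It was 0.76 ± 0.216 (SE) higher in AOC than in IEC12 (limma, adjusted p = 0.00974).

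AJUBA, a LIM-domain scaffold that inhibits LATS kinases, lies at chr7:76063009-76072884. Its FPKM was 8.67, 9.07 and 7.38 in IEC2, 10.2, 11.6 and 16.6 in IEC4, 2.23, 4.42 and 5.03 in IEC12 and 6.43, 7.03 and 5.24 in AOC. The order was IEC4, IEC2, AOC and IEC12, with no overlap between neighbours. AJUBA fell from IEC4 to IEC12 by 1.52 on the log2 scale (SE 0.261, limma adjusted p = 0.00156). Its log2 fold change in AOC over IEC12 was 0.61 ± 0.242 (SE), called narrowly in limma (adjusted p = 0.0482). That call was lost without a filter on low values (adjusted p = 0.0773), in the 2 groups alone (0.0836), with equal FPKM totals (0.0885), and without any one of 5 libraries, the 3 of AOC and IEC12 replicates A and B (limma adjusted p from 0.0501 to 0.177). Without IEC12 replicate A the fold change was 0.33.

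Among the coactivators, YAP1 and WWTR1 moved in opposite directions between IEC2 and IEC12. YAP1, at chr9:32811629-32924926, was at 16.8, 18.3 and 20.1 FPKM in IEC2, at 52.1, 54.1 and 49.1 FPKM in IEC4, at 68.6, 57.5 and 59.6 FPKM in IEC12 and at 18.5, 20.1 and 19.5 FPKM in AOC. The replicates of each group were close together, IEC12 and IEC4 were high, and AOC and IEC2 overlapped at the lower level. From IEC2 to IEC12, YAP1 rose by 1.70 ± 0.126 (SE) on the log2 scale (limma, adjusted p = 1.06e-05). It was 1.62 lower in AOC than in IEC12 (log2 fold change -1.62, SE 0.111, limma adjusted p = 1.92e-07). The log2 difference of IEC4 from IEC2 was 1.45, without a test. Between IEC12 and IEC4 YAP1 was not called (log2 fold change 0.25, SE 0.126, limma adjusted p = 0.133), whereas under median-of-ratios scaling it was (0.48, limma adjusted p = 0.0351), and with equal FPKM totals the value was 0.04.

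WWTR1, which encodes TAZ and lies at chr13:89742980-89889547, was at 99.7, 130 and 135 FPKM in IEC2, at 155, 165 and 111 FPKM in IEC4, at 31.6, 55.0 and 84.7 FPKM in IEC12 and at 66.9, 71.2 and 44.9 FPKM in AOC. IEC4 and IEC2 overlapped at the higher level, as did AOC and IEC12 at the lower one. WWTR1 fell from IEC4 to IEC12 by 1.40 on the log2 scale (SE 0.312, limma adjusted p = 0.00583) and from IEC2 to IEC12 by 1.17 (SE 0.312, limma adjusted p = 0.0132). Between AOC and IEC12 the fold change was 0.18 ± 0.308 (SE) and was not called (limma, adjusted p = 0.65). The ratio of YAP1 to WWTR1 FPKM was 0.140 to 0.168 in IEC2, 0.328 to 0.444 in IEC4, 0.703 to 2.17 in IEC12 and 0.277 to 0.435 in AOC. IEC12 was thus above the other groups, and its 3 libraries spread widely. The exact two-sided permutation p was 0.1 for IEC12 against IEC4, for IEC12 against IEC2 and for AOC against IEC12, with 0.15 after adjustment. The sum of YAP1 and WWTR1 was 159.8 to 219 FPKM in IEC4 and 100.2 to 144 FPKM in IEC12, without overlap, and was lowest in AOC at 64.5 to 91.3 FPKM.

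**Figure D2:**
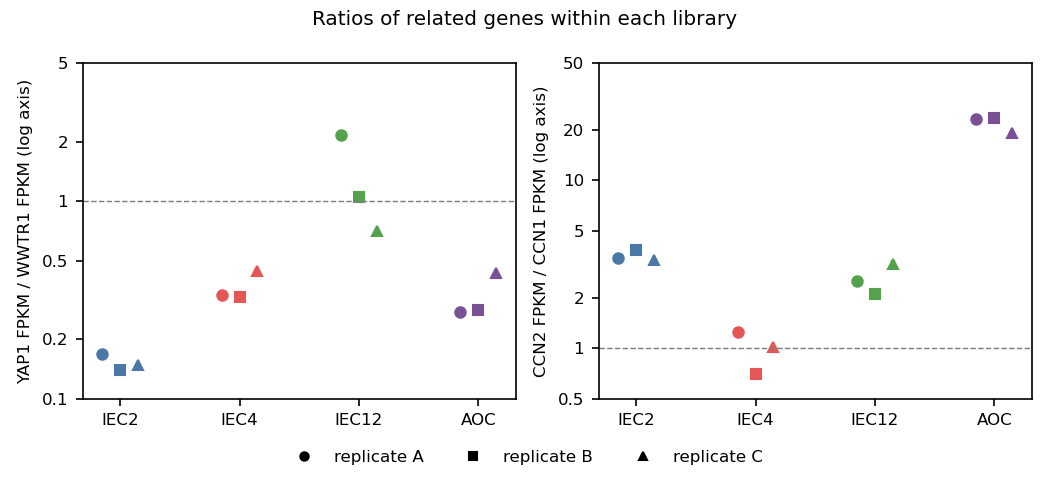
Ratio of YAP1 to WWTR1 FPKM (left) and of CCN2 to CCN1 FPKM (right) in every library, on log axes, with the replicate letter as the marker shape and a dashed line at equal levels. YAP1 over WWTR1 is highest in IEC12, at 0.703 to 2.17, and CCN2 over CCN1 is highest in AOC, at 19.1 to 23.5.

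TEAD factors bind DNA and recruit YAP or TAZ. TEAD1, at chr2:46396490-46670619, was the most abundant of them in all libraries, with 62.9 to 96.0% of the summed FPKM of TEAD1 to TEAD4. Its means were 8.62 ± 1.77 in IEC2, 10.3 ± 3.29 in IEC4, 6.17 ± 1.15 in IEC12 and 6.76 ± 0.250 in AOC (SD, n = 3 each). In the order of these means, IEC4, IEC2, AOC and IEC12, neighbours overlapped, but the IEC4 libraries lay above those of AOC and IEC12. TEAD1 was called in none of the 3 comparisons with limma, although the log2 fold change of -0.63 from IEC4 to IEC12 (adjusted p = 0.0544) was -0.81 and called with equal FPKM totals (adjusted p = 0.0222). With those totals TEAD1 was also called in IEC12 against IEC2 (-0.67, limma adjusted p = 0.0495), where it was otherwise at -0.42 (limma adjusted p = 0.179). TEAD4, at chr5:67130392-67167579, was at 2.62, 4.62 and 2.59 FPKM in IEC2, at 1.85, 1.85 and 4.34 FPKM in IEC4, at 0.190, 0.954 and 1.36 FPKM in IEC12 and at 2.69, 2.61 and 1.85 FPKM in AOC. IEC12 lay below the other groups, which overlapped.

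TEAD4 fell from IEC4 to IEC12 by 0.99 on the log2 scale (SE 0.337, limma adjusted p = 0.0371) and from IEC2 by 1.24 (SE 0.337, limma adjusted p = 0.0145), and was 0.93 ± 0.311 (SE) higher in AOC than in IEC12 (limma adjusted p = 0.0225). The call between IEC12 and IEC4 was lost without IEC12 replicate A (limma adjusted p = 0.116), IEC12 replicate B (0.0685) or IEC4 replicate C (0.123), with no filter on low values (0.0812) and in the 2 groups alone (0.0539). That between IEC12 and IEC2 was lost without IEC2 replicate B (0.0582), and that between AOC and IEC12 without AOC replicate A (0.0691), AOC replicate B (0.0654) or IEC12 replicate A (0.0857). The summed FPKM of TEAD1 to TEAD4 was 10.8 to 19.8 in IEC4, 9.67 to 14.1 in IEC2, 5.73 to 8.67 in IEC12 and 8.66 to 9.99 in AOC.

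LATS2, the kinase that phosphorylates YAP and TAZ, lies at chr11:1225523-1265970 and was low throughout, with means of 0.624 ± 0.295 FPKM in IEC2, 1.08 ± 0.719 in IEC4, 0.690 ± 0.175 in IEC12 and 1.34 ± 0.387 in AOC (SD, n = 3 each). In the order of these means, AOC, IEC4, IEC12 and IEC2, neighbours overlapped, but the AOC libraries lay above those of IEC12 and IEC2. LATS2 failed the filter on low values in the IEC libraries and was tested only in AOC against IEC12, where its log2 fold change of 0.46 ± 0.236 (SE) was not called (limma, adjusted p = 0.113). It was called under median-of-ratios scaling (0.61, limma adjusted p = 0.0334). LATS2 failed the filter of that fit without AOC or without IEC4, so neither value is read as a test.

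Counted over the gene set, most called changes were toward lower levels in IEC12. In IEC12 against IEC4, ANKRD1 was not tested and LATS2 failed the filter. Of the 8 genes tested, 0 were higher and 5 were lower (CCN1, AMOTL2, AJUBA, WWTR1 and TEAD4), against 17.3% and 26.9% of the 10542 genes tested (limma, adjusted p under 0.05). At an unadjusted p under 0.05, 0 were higher and 6 lower. The median of the 8 log2 fold changes was -1.20, beside -0.15 over all genes. In IEC12 against IEC2, with ANKRD1 and LATS2 left out, 1 of 8 genes was higher (YAP1) and 6 were lower, against 24.2% and 19.3% of all genes, with medians of -1.21 and 0.03. In AOC against IEC12, 6 of 10 were higher and 1 was lower, against 22.4% and 36.2% of 11053 genes, with medians of 0.68 and -0.21. Without LATS2, 6 of 9 were higher and 1 was lower, with a median of 0.76. A stricter rule took the limits used in the study, which asked for p and adjusted p below 0.001 as well as a log2 change beyond 3 in size. It left 0 genes in IEC12 against IEC4, CCN1 and CCN2 in IEC12 against IEC2, and ANKRD1 and CCN2 in AOC against IEC12, where 0.939%, 1.22% and 4.41% of all genes passed it. Comparisons with IEC12 share its libraries and are not independent of each other.

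**Figure D3:**
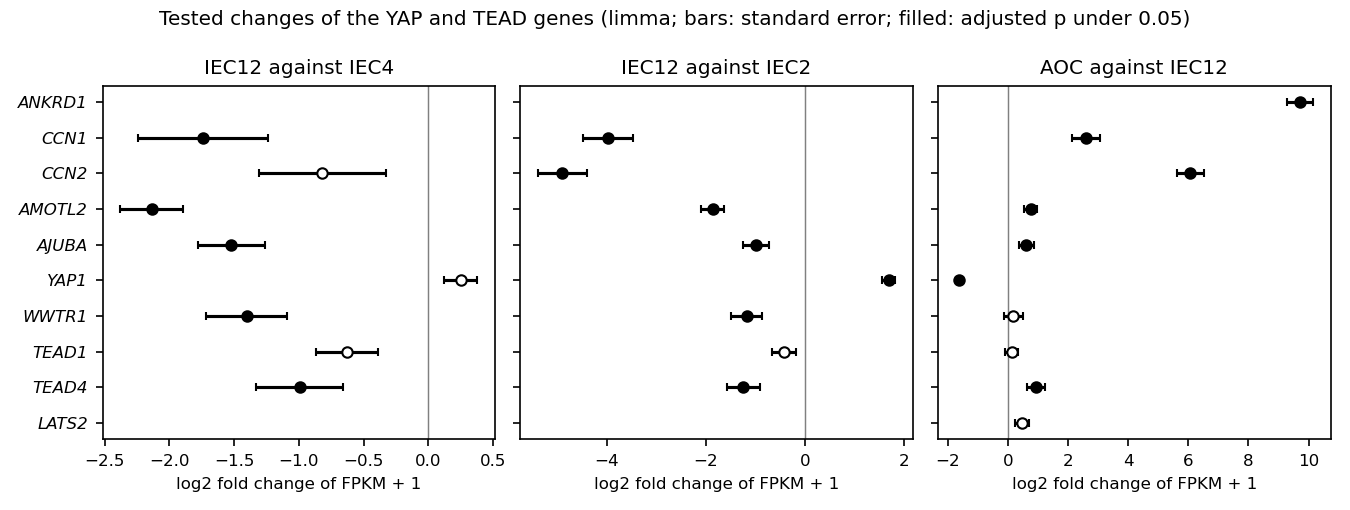
Log2 fold change of FPKM + 1 from limma for each gene in the comparisons in which its test is read (ANKRD1 only in AOC against IEC12). LATS2 is also drawn in AOC against IEC12, where its test is not read. Bars are the standard error and filled points have an adjusted p under 0.05. Points left of 0 prevail in IEC12 against IEC4 and in IEC12 against IEC2, and the largest value is that of ANKRD1 in AOC against IEC12, 9.71.

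The IEC4 libraries differed among themselves. Replicate C was the highest of the 3 for 8 of the 10 genes, where its FPKM was 1.52 to 5.56 times the mean of replicates A and B, and was the lowest for YAP1 and WWTR1 (0.925 and 0.691 times). ANKRD1 in replicate C was 3.90 times that mean, CCN1 4.76 times and CCN2 5.56 times. Over the 10542 genes tested in the IEC libraries, replicate C was the highest for 38.6% and exceeded 1.5 times the mean of A and B for 14.9%. Without replicate C, the log2 difference of ANKRD1 between IEC4 and IEC2 was 5.34. That of AMOTL2 went from 0.27 to -0.02 and that of TEAD1 from 0.21 to -0.02, neither with a test. Under median-of-ratios scaling TEAD1 was at -0.01 and WWTR1 at -0.02 in place of 0.23, so no direction is given for these genes between day 2 and day 4.

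**Figure D4:**
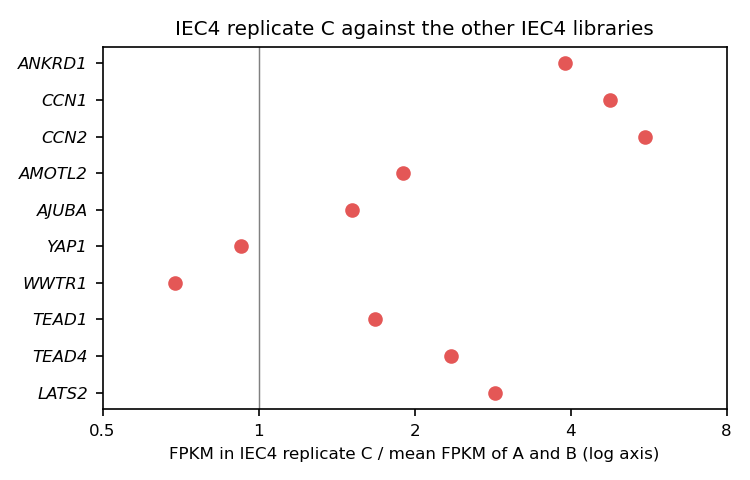
FPKM in IEC4 replicate C divided by the mean FPKM of replicates A and B, for each of the 10 genes, on a log axis; the line marks equal levels. The genes lie at 1.52 to 5.56 except YAP1 at 0.925 and WWTR1 at 0.691.

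The sum of epithelial markers, like ANKRD1, had its highest IEC levels in IEC4, but it was lowest in AOC. The epithelial markers, of which 5 of 6 were found, summed to 108 to 144 FPKM in IEC2, to 518.5, 678 and 1434 FPKM in IEC4 replicates A, B and C, to 41.8 to 86.6 FPKM in IEC12 and to 2.21 to 4.05 FPKM in AOC. KRT8, a keratin of simple epithelia, was at 300.4 to 748 FPKM in IEC4 and at most 0.0106 FPKM in AOC, where ANKRD1 was highest. KRT8 and CLDN6 made up most of the epithelial sum in the IEC libraries. EPCAM was at 0.166 and 0.2075 FPKM in IEC4 replicates A and B, within its IEC12 range of 0.0990 to 0.333 FPKM. It was at 2.21 FPKM in IEC4 replicate C, at 0 in IEC2 and at most 0.0403 FPKM in AOC. The 6 smooth muscle markers summed to 1.70 to 2.48 FPKM in IEC2, 6.09 to 14.7 in IEC4, 0.853 to 2.75 in IEC12 and 7.65 to 17.9 in AOC. ACTA2 and SMTN made up most of that sum in IEC4 and AOC, whereas CNN1 and DES were listed at 0 in AOC and TAGLN was at 0.0145 FPKM or less there. The cardiac markers, 6 of 9 found, did not exceed 2.41 FPKM in sum in any library, and the 7 fibroblast markers summed to 85.0 to 115.5 FPKM in IEC2, 47.5 to 58.5 in IEC4, 62.4 to 80.7 in IEC12 and 18.3 to 23.6 in AOC. COL3A1 was most of the fibroblast sum in the IEC libraries, while COL1A1 went the other way, from 0.273 to 0.381 FPKM in IEC2 to 2.18 to 9.86 FPKM in IEC4. In AOC, most of the fibroblast sum was COL1A2, at 13.1 to 15.5 FPKM, against at most 0.975 FPKM in the IEC libraries. The 2 pluripotency markers found of 6, NANOG and LIN28A, summed to at most 6.39 FPKM. LIN28A was listed at 0 in IEC2 and AOC, at 3.01 to 5.86 FPKM in IEC4 and at 0 to 0.647 FPKM in IEC12. NANOG had its highest mean in IEC12, 0.732 FPKM, where it was at 0.248 to 1.075 FPKM. The part of these cells in the level of ANKRD1 was not tested.

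Other genes widely counted as YAP and TAZ targets were taken from a list of 17, of which 15 were found. In the IEC libraries 11 were tested, while FJX1, FOXF2, NT5E and PTPN14 failed the filter. In IEC4 against IEC2, 4 were higher and 1 was lower (limma, adjusted p under 0.05), against 24.8% and 12.5% of all genes, with a median log2 fold change of 0.59 beside 0.20 over all genes. Without F3, which failed the filter when IEC2 or IEC4 was left out, that median was 0.18. CCDC80, a matrix protein, went from 0.279 to 0.469 FPKM in IEC2 to 9.59 to 11.3 FPKM in IEC4 and rose by 3.08 ± 0.164 (SE, limma adjusted p = 3.21e-06), and was the single gene of this list within the limits of the study, which 1.18% of all genes passed. NUAK2, a kinase of the AMPK-related family, rose by 2.59 ± 0.354 (SE, limma adjusted p = 0.000477). TGFB2, the growth factor TGF-beta 2, rose by 2.11 ± 0.393 (SE, limma adjusted p = 0.00269), and ASAP1 by 1.07 ± 0.209 (SE, limma adjusted p = 0.00341). GADD45A, a stress-response gene, was the member called lower.

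In IEC12 against IEC4, 0 of these 11 genes were higher, also at an unadjusted p under 0.05, and 7 were lower, against 17.3% and 26.9% of all genes, with a median log2 fold change of -1.52 beside -0.15 over all genes. NUAK2 was at 15.1, 14.0 and 35.1 FPKM in IEC4 and at 0.167, 0.439 and 0.776 FPKM in IEC12, and fell by 3.84 (SE 0.354, limma adjusted p = 6.78e-05). MYOF, the membrane repair protein myoferlin, fell by 2.32 (SE 0.131, limma adjusted p = 4.88e-06), TGFB2 by 2.45 (SE 0.393, limma adjusted p = 0.00113) and GADD45A by 1.55 (SE 0.185, limma adjusted p = 0.000241). In IEC12 against IEC2, 1 gene was higher (CCDC80, by 1.79) and 4 were lower, MYOF by -2.63, GADD45A by -2.29 and NUAK2 by -1.25 among them, against 24.2% and 19.3% of all genes. The NUAK2 call was lost without IEC12 replicate B (limma adjusted p = 0.0504) or IEC2 replicate C (0.0704). The median over the list was -0.61 on the log2 scale, beside 0.03 over all genes.

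In AOC against IEC12, 12 genes of the list were tested, of which 7 were higher and 2 lower, against 22.4% and 36.2% of all genes, with a median log2 fold change of 1.07 beside -0.21 over all genes. Without F3 and NT5E, 6 of 10 were higher and 2 lower. TGFB2 was higher by 2.77 ± 0.356 (SE, limma adjusted p = 3.59e-05). The receptor tyrosine kinase AXL was at 16.4 to 16.9 FPKM in AOC and 2.44 to 2.77 FPKM in IEC12, a difference of 2.28 ± 0.202 (SE, limma adjusted p = 1.66e-06). NT5E, the ectonucleotidase CD73, was at 3.204 to 4.33 FPKM in AOC and 0.193 to 0.286 FPKM in IEC12. It passed the filter through AOC alone, so its call is not read as a test. RBMS3, an RNA-binding protein, was lower, with a log2 fold change of -2.23 ± 0.159 (SE, limma adjusted p = 2.63e-07).

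**Figure D5:**
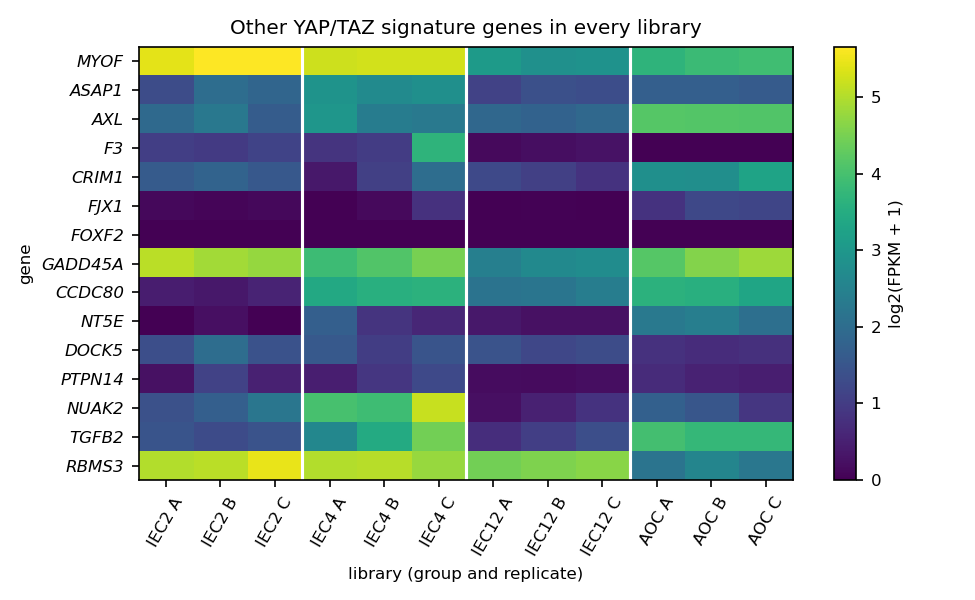
Colour map of log2(FPKM + 1) for the 15 other YAP and TAZ target genes found (rows) in each library (columns, grouped by stage, with white lines between groups). NUAK2 is brightest in IEC4 (35.1 FPKM in replicate C) and AXL in AOC, while TGFB2 is bright in AOC, at 12.6 to 14.5 FPKM, and in IEC4 mainly in replicate C, at 21.0 FPKM.

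Of 31 further genes of the Hippo pathway (kinases, adaptors, junctional regulators and TEAD cofactors), 29 were found and 19 tested. In IEC4 against IEC2, 4 were higher and 3 lower (limma, adjusted p under 0.05), shares of the 19 close to the 24.8% and 12.5% of all genes, with a median log2 fold change of -0.01 beside 0.20. MOB1A, a coactivator of LATS kinases, rose by 1.03 ± 0.213 (SE, limma adjusted p = 0.00443), and the polarity scaffold PALS1 rose by 1.08 (SE 0.157, limma adjusted p = 0.000681). PATJ, a partner of PALS1, passed the filter through IEC4 alone, at 1.90 to 3.75 FPKM against 0.494 to 0.622 FPKM in IEC2, and its call is not read as a test. Without PATJ, 3 of 18 were higher and 3 lower. SAV1, the scaffold of the MST kinases, fell by 0.93 (SE 0.217, limma adjusted p = 0.0082). In IEC12 against IEC4, 2 were higher, SAV1 by 0.80 and the adaptor WWC2 by 0.92, and 6 were lower, FRMD6 by -0.80 among them, against 17.3% and 26.9% of all genes, with a median of -0.05 beside -0.15. PATJ was among the lower genes, and its call is not read here either. Without PATJ, 2 of 18 were higher and 5 lower. The count of 8, with PATJ, was 3 without IEC12 replicate B, 3 without IEC4 replicate B and 5 without IEC4 replicate A. SAV1 was not called without IEC12 replicate B (limma adjusted p = 0.0521) or IEC4 replicate B (0.0602).

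In IEC12 against IEC2, 3 of the pathway genes were higher and 3 lower, against 24.2% and 19.3% of all genes, with a median log2 fold change of -0.13 beside 0.03, and the count of 6 was 3 without IEC12 replicate B. MOB1A was higher by 1.02 (SE 0.213), and FRMD6, an upstream FERM-domain protein, was lower at -1.73 (SE 0.216). LIMD1, a relative of AJUBA, and VGLL4, which competes with YAP for TEAD, were at -0.71 and -0.72, each losing its call in some sets without 1 library (VGLL4 in 5 of 6, LIMD1 in 2 of 6). In AOC against IEC12, 2 were higher and 11 lower, against 22.4% and 36.2% of all genes, with a median of -0.57 beside -0.21 over all genes. Without PATJ, which passed the filter through IEC4 alone, 2 of 18 were higher and 10 lower. STK3, which encodes an MST kinase, and LATS1, the other LATS kinase gene, were among the lower ones. WWC2 was at -1.82 ± 0.178 (SE, limma adjusted p = 3.68e-06), PALS1 at -1.42 ± 0.183 (3.74e-05) and MOB1A at -1.28 ± 0.275 (0.00179), while VGLL3, a TEAD cofactor, was higher by 1.37 ± 0.395 (SE, limma adjusted p = 0.0103).

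Related genes outside these lists were compared by level only. CCN3, a CCN-family protein, was at 0.0916, 0 and 0 FPKM in IEC2, at 1.96, 2.57 and 32.8 FPKM in IEC4, at 0.0721, 0.235 and 0.636 FPKM in IEC12 and at 9.25, 16.2 and 10.9 FPKM in AOC. Like ANKRD1 it was low in IEC2 and IEC12, but its level in IEC4 rested on replicate C. CCN4 was at 2.78 to 4.44 FPKM in IEC2, 3.06 to 5.80 in IEC4, 1.33 to 1.88 in IEC12 and 0.212 to 0.577 in AOC. CCN5, CCN6 and ANKRD2, a muscle relative of ANKRD1, stayed at or below 0.66 FPKM in all libraries.

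The genes whose pattern was most like that of ANKRD1 were found by Pearson correlation of log2(FPKM + 1). Over the 12 libraries and 9158 genes with a symbol, these were CTSC (r = 0.993), DSTN (0.992), IFI6 (0.992), PDLIM1 (0.990) and FERMT1 (0.990), as a description in which libraries of a group are not independent. CTSC encodes the protease cathepsin C, DSTN the actin-depolymerizing protein destrin, PDLIM1 an actin-associated LIM protein and FERMT1 an integrin activator. PDLIM1 had means of 22.6 FPKM in IEC2, 244 in IEC4, 21.1 in IEC12 and 873 in AOC. Over the 9 IEC libraries the 5 were S100A14, BEST2, CERS6, COL17A1 and PHLDB2 (r from 0.996 to 0.997 over 8789 genes), and S100A14 was listed at 0 in all IEC2 libraries, at 7.30 to 17.4 FPKM in IEC4 and at most at 0.214 FPKM in IEC12. All 5 were at most 0.458 FPKM in IEC2 and IEC12. Like ANKRD1 they passed the filter through IEC4 alone, so these r values largely restate that they were high there. They were not the 5 found with a pseudocount of 0.1 or with Spearman's rho. Of the other 9 genes of the set, LATS2 had the highest r with ANKRD1 over 12 libraries (0.705) and YAP1 the lowest (-0.246). LATS2 was in place 1337 of 11052 genes, with or without a symbol. It passed the filter only with AOC and IEC4, the groups where ANKRD1 was high. Over the 9 IEC libraries AJUBA was highest (0.704, place 1780 of 10541 genes), and YAP1 was at 0.400. CCN2 was at 0.418 over 12 libraries and at -0.323 over the 9 IEC libraries.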

How the data were processed

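RNA sequencing of total RNA, amplified by the Smart-Seq2 method, was analysed in 12 libraries, 3 each of AOC, IEC2, IEC4 and IEC12, with groups and replicate letters taken from the sample titles. The authors processed the reads with the Galaxy web tool and deposited a table per library with 1 FPKM value for each gene. The submitters' processing notes name Bowtie2 2.2.3, TopHat2 2.0.12, Cufflinks 2.2.1 and the build susScr11, without their settings. Strand and further scaling are not given in the sources used here. The FPKM unit was taken from these tools and from the values, since the tables' headers do not name it.

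Genes were found by Ensembl identifier and symbol (13998 of 19681 had one). Coordinates are those of RefSeq genes on Sscrofa11.1, the assembly of susScr11. The genes and lists were chosen with earlier results of these data known. No test was made on the chosen genes between IEC4 and IEC2, or on ANKRD1 between IEC12 and IEC4. The fit tested ANKRD1 between IEC12 and IEC2 and LATS2 between AOC and IEC12, but those tests are not read.

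Tests used limma 3.58.1 in R 4.3.3 (lmFit, contrasts.fit, eBayes with trend) on log2(FPKM + 1), two-sided, for genes with at least 1 FPKM in at least 3 libraries of the fit, and p-values were adjusted by Benjamini-Hochberg over all genes tested. IEC comparisons were fitted on the 9 IEC libraries and AOC against IEC12 on all 12. A call needed an adjusted p under 0.05. Of the other target and pathway lists, the up to 4 called genes with the largest absolute log2 fold change were named per comparison, beside the markers, the related genes as levels and the 5 genes most like ANKRD1. FJX1, FOXF2, NT5E and PTPN14, GADD45A as the single lower gene, and STK3, LATS1, F3 and single markers were also named after their values were seen. Relative depth came from the spacing of low values in 3673 genes under 0.2 FPKM, and IEC12 replicate A is not given because 2 spacings fitted it. No libraries were identical. On data simulated for IEC12 against IEC4 over 10234 genes, limma recovered 53 of 100 genes given a log2 change of 1 and 87 of 100 given a change of 2, with 7 others called. The changed genes were drawn from those with a mean log2(FPKM + 1) above 2, so lower genes such as TEAD4 are not covered. All other genes were given no change, whereas 17.3% and 26.9% were called higher and lower in the real comparison. Ratios were tested with SciPy 1.17.1. Alternatives were a pseudocount of 0.1, no filter, a replicate block, median-of-ratios scaling, equal FPKM totals, a fit of the 2 groups alone, the limits of the study and leaving out each library. Leaving out genes that failed the filter once 1 group was set aside was added after seeing the data.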

Additional observations from a re-analysis of the deposited data

How the results depend on the processing

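The limits of the study left fewer calls than an adjusted p under 0.05 in each list. In IEC4 against IEC2 they left 1 of 5 other targets and 0 of 7 pathway genes. In IEC12 against IEC4 they left 0 of 5 genes of the set, 1 of 7 other targets and 0 of 8 pathway genes. In IEC12 against IEC2 the counts were 2 of 7, 0 of 5 and 0 of 6, and in AOC against IEC12 they were 2 of 7, 0 of 9 and 0 of 13. Without a filter, 11 pathway genes were called in IEC4 against IEC2 in place of 7. With a pseudocount of 0.1 the ANKRD1 difference between IEC4 and IEC2 was 8.95 in place of 6.0, since IEC2 lies near 0, and leaving out each library gave 5.34 to 6.52. Leaving out each library gave 3 to 7 pathway genes in both IEC12 against IEC4 and IEC12 against IEC2. Of the 5 genes most like ANKRD1 over 12 libraries, 2 were shared with a pseudocount of 0.1 and 0 with Spearman's rho, and over the 9 IEC libraries 0 and 0. Median-of-ratios scaling moved the median log2 fold change of all genes from 0.20 to -0.01 in IEC4 against IEC2, from -0.15 to 0.04 in IEC12 against IEC4 and from -0.21 to -0.01 in AOC against IEC12, and equal FPKM totals moved that of IEC12 against IEC2 from 0.03 to -0.18. Over all genes, calls higher and lower went from 2614 and 1318 to 1867 and 1899 in the first, from 1825 and 2835 to 2496 and 2283 in the second (1163 and 3381 with equal totals), from 2472 and 3997 to 3255 and 3117 in the third and from 2556 and 2036 to 1573 and 2732 in the last. Leaving out genes that passed the filter through 1 group, chosen after seeing the data, moved no count of calls by over 1.5 times. No called value changed sign under the alternatives run. Of 18 pairs of libraries with the same replicate letter, 2 deviated together with r over 0.1 (range -0.514 to 0.246). These were IEC2 with IEC12 for replicates A (0.246) and C (0.201). The 18 include pairs with AOC, a separate line, and deviations from means of 3 libraries cannot decide whether the letters mark pairs. With the letter as a block, 5, 7 and 6 genes of the set were called in IEC12 against IEC4, IEC12 against IEC2 and AOC against IEC12, and AJUBA lost its call in the last (limma, adjusted p = 0.0528). A search of promoters for the TEAD motif was not run. The read depth behind each FPKM is unknown, so that no counting interval can be given, and 3 libraries a group limit what low genes such as LATS2 and TEAD4 can show.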
